A study of Homo sapiens with 18 samples.

Results

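Messenger RNA of 10 genes of the immunoproteasome and of class I peptide loading was followed in EA.hy926 endothelial cells: TAP1, TAP2, TAPBP, PSMB8, PSMB9, PSMB10, PSME1, PSME2, ERAP1 and ERAP2. They were taken by symbol from a matrix of 62754 genes, and all 10 were found and passed the filter on low counts that left 15167 genes. EA.hy926 is a single human line made by fusing umbilical vein endothelial cells with the lung epithelial line A549. The cells received transfection reagent without siRNA (Mock), a non-targeting siRNA at 10 nM (siNT) or a pool of siRNAs against ELMO1 at 10 nM (siELMO1), and all were kept in low-serum medium overnight. Cells were harvested at 48 h from transfection, untreated (0 h), or 24 h later in the presence of poly(I:C), a synthetic double-stranded RNA that mimics viral RNA, at 1 μg/ml. Each of the 6 groups had 3 libraries, called biological replicates by the study, 18 in all, and no animal or donor varied between them.

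The proteasome is a barrel of stacked rings whose catalytic β subunits cut proteins into peptides. Interferon replaces the constitutive catalytic subunits PSMB5, PSMB6 and PSMB7 by PSMB8 (LMP7), PSMB9 (LMP2) and PSMB10 (MECL-1), and PSME1 and PSME2 form the PA28 cap that opens the barrel. The peptides are pumped into the endoplasmic reticulum by the TAP1-TAP2 transporter, held next to empty class I molecules by tapasin (TAPBP) and trimmed by the aminopeptidases ERAP1 and ERAP2. Endothelial cells present peptides on class I to cytotoxic T cells, and these genes are known interferon targets that share elements for interferon-activated factors in their promoters.

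The promoter letters are shown because the 10 genes rose together and because most of them carry the same element. In RefSeq windows (GRCh38.p14) from 250 bases before to 50 after the annotated start, the core of the interferon-stimulated response element (ISRE), searched on both strands as a pair of GAAA words with any 2 bases between them, was found in 9 of the 10 genes, and in 9 of their 14 windows. It was held by 3.57% of all 35116 promoters listed and by 4.38% of 27305 genes. The stretches below are 30 bases each, 5′ to 3′ on the strand of the gene, with the matched letters, overlapping matches joined, in capitals.
TAP1, chr6:32853816-32853845, minus strand: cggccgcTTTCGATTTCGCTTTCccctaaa
TAP2, chr6:32838778-32838807, minus strand: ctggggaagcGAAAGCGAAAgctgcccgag
TAPBP, chr6:33314076-33314105, minus strand: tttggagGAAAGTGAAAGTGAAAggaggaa
PSMB8, chr6:32844032-32844061, minus strand: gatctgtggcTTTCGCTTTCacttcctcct
PSMB10, chr16:67936852-67936881, minus strand: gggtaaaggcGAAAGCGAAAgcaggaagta
PSME1, chr14:24136189-24136218, plus strand: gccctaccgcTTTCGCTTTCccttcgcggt
PSME2, chr14:24146619-24146648, minus strand: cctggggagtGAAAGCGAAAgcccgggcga
ERAP1, chr5:96807924-96807953, minus strand: cgggctccacTTTCACTTTCggtcctgggg
ERAP2, chr5:96876460-96876489, plus strand: tcttagaacaGAAAGTGAAAgcaaaagtaa

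Apart from TAP1, 8 genes held a match near the RefSeq start, from position −58 in TAP2 to position 15 in PSME1. The TAP1 match lay at −134 to −119. Positions are counted from the first transcribed base as 1 and there is no 0. They depend on the annotation used. The RefSeq start of TAP1 is at 32853704. The GENCODE 44 range of this minus-strand gene ends at 32853816, nearer to the match at 32853823 to 32853838. PSMB8 and ERAP2 held the match only in their second window. The minus-strand GENCODE 44 ranges of PSMB8 and PSME2 end at 32844679 and 24147570. Their matches lie nearer to the RefSeq starts, 32844047 and 24146610. The GENCODE 44 range of ERAP2 begins at 96875986, while the RefSeq start of its second window is at 96876500. TAP1 and TAPBP each held overlapping matches. The PSMB9 window held no match, and only the listed letters were searched. PSMB9 starts 487 bases from TAP1 on the other strand, and the TAP1 match lies between both starts, 354 to 369 bases before that of PSMB9. The gamma-activated site, searched as TTCNNNGAA, which reads the same on both strands, was found in a second window of TAP1 and in one of PSMB8, against 7.66% of all promoters. The kappa B element, searched by its consensus on both strands, was found in TAP1 at −72 to −63, against 0.558% of all promoters. Of the constitutive subunits only PSMB5 had windows in the table, with no ISRE core. Among 20 genes of the 19S regulatory particle with a window none held the ISRE core, and among 9 other core subunits PSMA4 and PSMB4 did. Among 4 class I heavy chain genes with a window only HLA-F held it, and among 8 transcription regulators of class I only RFX5 and RELA. Of 7 other peptide loading genes only B2M did, and of 7 other peptidases only LAP3. Of 10705 tested genes with a window 4.26% held it, of 847 genes that rose over 2-fold with poly(I:C) in Mock 16.8%, and of 492 that fell over 2-fold 4.88%. A match is a description of letters, and no binding was measured.

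**Figure D1:**
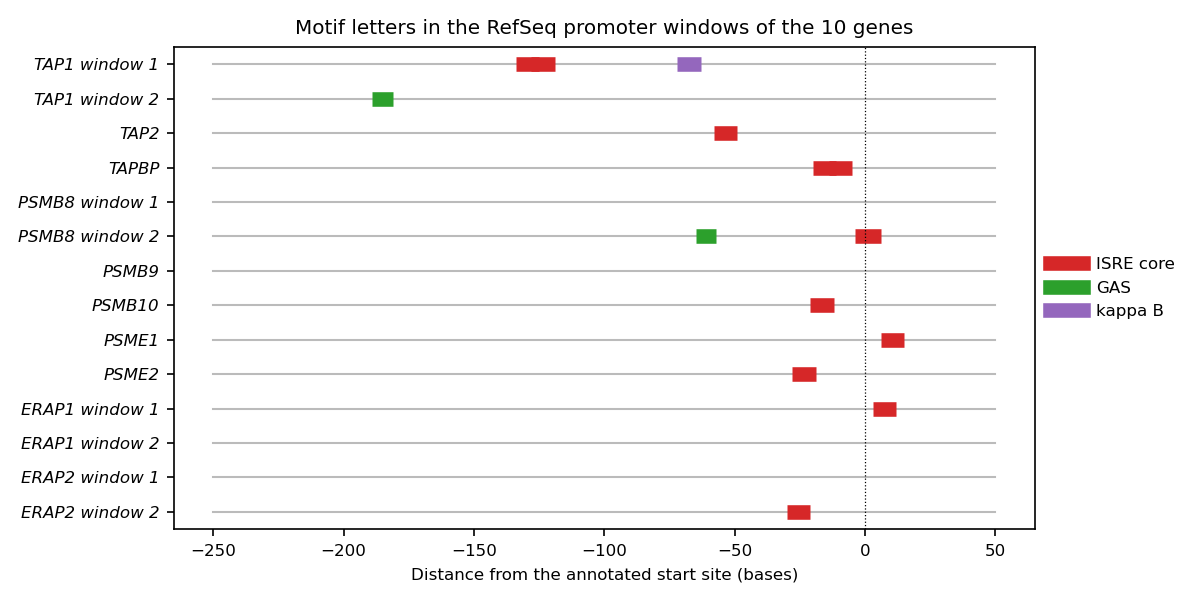
Positions of the 3 searched motifs in the 14 RefSeq promoter windows of the 10 genes, in bases from the annotated start (dotted line); grey lines are the windows and coloured blocks the matches. The ISRE core (red) lies near the RefSeq start in 8 genes and farther upstream of it in TAP1, and PSMB9 has no block.

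The libraries held 40.4 to 73.9 M estimated counts, and the counts of the 10 genes ran from 340 to 22204 per library. ELMO1, the target of the siRNA, had 2.66 to 3.32 CPM (counts scaled to library size after TMM factors) in Mock and siNT at 0 h and 0.299 to 0.419 CPM in siELMO1, and 0.155 to 0.360 CPM in siELMO1 at 24 h. In depth and mitochondrial share, siELMO1 at 0 h replicate 1 stood apart in its group, with 71.1 M counts and 1.86% mitochondrially encoded counts. Replicates 2 and 3 of siELMO1 at 0 h had 40.4 and 51.0 M and 4.02 and 3.95%. In all other groups the share ran from 1.31 to 2.42%, so that replicates 2 and 3, not replicate 1, lay outside that range. Calls that change without replicate 1 are given with and without it. Values without it rest on replicates 2 and 3 in that group. At 24 h replicate 3 was the highest library for 9 of the 10 genes in Mock and in siELMO1 (all but PSME2) and for all 10 in siNT. Of 10 endothelial markers 9 reached a mean of 1 TPM (a level per transcript length) in every group, and of 9 lung epithelial markers 3 or 4 did, with CDH1, SFTPC and NKX2-1 listed at 0. Of 9 leukocyte markers 4 reached 1 TPM, CD3E was listed at 0 in every group, and the summed level of the list ran from 52.0 to 143 TPM at 0 h and from 194 to 378 TPM at 24 h. Of the 4, CD68 rose in all 3 responses and HLA-DRA fell in all 3 (−1.01, −0.92 and −0.83 in Mock, siNT and siELMO1). The summed endothelial markers went from 1695 to 1770 TPM at 0 h to 1071 to 1381 TPM at 24 h in Mock, from 1748 to 1857 to 1473 to 1657 in siNT, and overlapped in siELMO1 (2079 to 2236 and 1917 to 2325). The summed lung epithelial markers ran from 1108 to 1562 TPM at 0 h and from 666 to 888 TPM at 24 h. Their part in the results below was not tested. EA.hy926 is a single fused line, so these sums do not measure shares of separate cell types. The sums also join genes that moved in different directions. In the Mock response, 3 of 9 tested endothelial markers rose and 5 fell. Of 4 tested lung epithelial markers 1 rose and 3 fell.

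The first question was how the genes responded to poly(I:C), taken as 24 h against 0 h. No group was kept for the same 24 h without poly(I:C), so its effect cannot be told apart from that of time. The study reports extensive cell death in siNT cultures after poly(I:C) and far less in the other transfections. It proposes this death as the likely reason for lower inflammatory transcripts in siNT. The cultures compared with siNT at 24 h were thus not equally viable. How far cell death contributed to the siNT values and responses below was not tested. All 10 rose in each of the 3 transfections, with a fold over 2 in every case and with all 3 libraries at 24 h above all 3 at 0 h. The largest increases were those of TAP1 and PSMB9 and the smallest those of ERAP1, PSME1 and TAPBP. As background, 30.7% of the 15167 tested genes were called higher in Mock, 28.6% in siNT and 28.0% in siELMO1, at an adjusted p under 0.05 in edgeR's quasi-likelihood test, and 34.9%, 32.9% and 28.7% had all 3 libraries at 24 h above those at 0 h. The median log2 fold change of the 10 genes was 2.00 in Mock, 1.40 in siNT and 1.84 in siELMO1, where the median of all tested genes was 0.0066, 0.0144 and 0. Ranked by fold change among the 15167 genes, TAP1 stood at 209, 191 and 222 in Mock, siNT and siELMO1, and ERAP1 at 1153, 1006 and 1219. The 10 genes stayed called higher in all 3 responses under every alternative processing and without any single library. Scaling to library totals alone moved the median of all genes in the Mock response by −0.12.

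**Figure D2:**
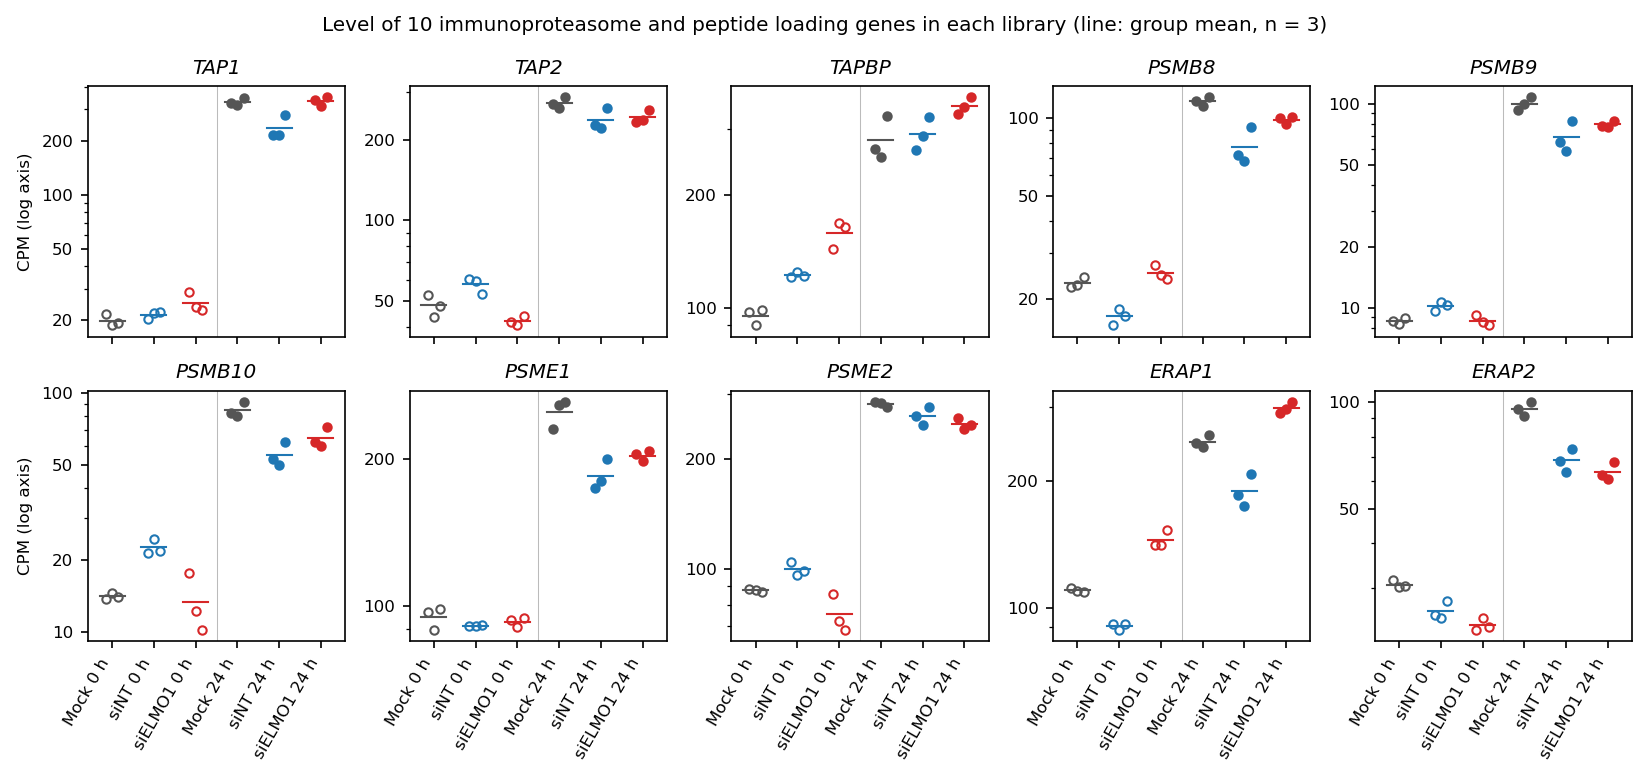
CPM on a log axis for each of the 10 genes in the 18 libraries; open points are 0 h, filled points 24 h, and lines group means of 3 libraries. In every panel the 9 libraries at 24 h lie above the 9 at 0 h, and the axis range differs between panels.

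TAP1 (ENSG00000168394.13, chr6:32845209-32853816, GRCh38) encodes a subunit of the peptide pump and lies in the class II region of the major histocompatibility complex, with TAP2, PSMB8 and PSMB9. In Mock its level was 21.6, 18.8 and 19.4 CPM at 0 h and 326, 315 and 347 CPM at 24 h. For siNT the values were 20.3, 22.0 and 22.1 CPM at 0 h and 215, 214 and 278 CPM at 24 h. siELMO1 had 28.7, 23.7 and 22.8 CPM at 0 h and 337, 312 and 349.5 CPM at 24 h. TAP1 was thus low in all 9 libraries at 0 h and high in all 9 at 24 h. At 24 h siNT lay below both other transfections. TAP1 shares 672 exonic bases with the non-coding gene PSMB8-AS1 on the other strand (3891 counts over all libraries). The mean rose 16.6-fold in Mock (log2 fold change 4.05 ± 0.11 (SE), adjusted p = 1.35e-15), 11.0-fold in siNT (3.46 ± 0.10, adjusted p = 1.95e-14) and 13.3-fold in siELMO1 (3.73 ± 0.11, adjusted p = 4.56e-15).

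TAP2 (ENSG00000204267.19, chr6:32821833-32838739), the other subunit of the pump, had 52.8, 43.6 and 47.96 CPM in Mock at 0 h and 272, 263 and 287 CPM at 24 h. In siNT it had 60.4, 59.4 and 53.2 CPM at 0 h and 227, 220.4 and 262 CPM at 24 h. In siELMO1 it had 41.8, 40.6 and 43.9 CPM at 0 h and 233, 236 and 258 CPM at 24 h. siNT was the highest group at 0 h, and siNT and siELMO1 overlapped at 24 h, both with every library below those of Mock. The fold was 5.69 in Mock, 4.10 in siNT and 5.76 in siELMO1. TAP2 shares 2023 exonic bases with the same-strand gene ENSG00000250264, so that their counts could be split between them.

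TAPBP (ENSG00000231925.14, chr6:33299694-33314284), tapasin, is the bridge between the transporter and class I. Its Mock values were 97.8, 90.2 and 98.9 CPM at 0 h and 265, 253 and 325 CPM at 24 h. Those of siNT were 122, 125 and 122 CPM at 0 h and 264, 287 and 323 CPM at 24 h. In siELMO1 they were 144, 169 and 164 CPM at 0 h and 328, 343 and 364 CPM at 24 h. At 0 h the 3 transfections did not overlap and stood in the order Mock, siNT, siELMO1, and at 24 h only siELMO1 stood apart. Its response was among the smallest, 2.94-fold in Mock, 2.37-fold in siNT and 2.17-fold in siELMO1.

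At 0 h each of the 3 immunosubunits stood below the constitutive subunit it replaces, per transcript length. PSMB9 (ENSG00000240065.8, chr6:32844136-32859851), which replaces PSMB6, had 8.64, 8.30 and 8.97 CPM in Mock at 0 h and 93.2, 100.1 and 108 CPM at 24 h. In siNT it had 9.65, 10.7 and 10.4 CPM at 0 h and 65.2, 58.7 and 83.0 CPM at 24 h. In siELMO1 it had 9.24, 8.54 and 8.23 CPM at 0 h and 78.4, 76.9 and 83.0 CPM at 24 h. Mock was thus the highest group at 24 h, and siNT, the highest at 0 h, overlapped siELMO1 at 24 h. PSMB9 shares 174 exonic bases with the same-strand non-coding gene PSMB8-AS1 (3891 counts over all libraries). The increase was 11.6-fold, 6.73-fold and 9.16-fold in Mock, siNT and siELMO1 (log2 3.54 ± 0.10, 2.75 ± 0.10 and 3.19 ± 0.11).

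PSMB8 (ENSG00000204264.12, chr6:32840717-32844679), which replaces PSMB5, had 22.3, 22.6 and 24.3 CPM in Mock at 0 h and 116, 111 and 120.0 CPM at 24 h. In siNT the values were 15.9, 18.3 and 17.2 CPM, rising to 71.7, 68.3 and 92.4 CPM. In siELMO1 they were 26.9, 24.8 and 23.9 CPM, rising to 99.6, 94.5 and 101 CPM. Both before and after poly(I:C) every siNT library lay below every library of the other transfections. Its exons overlap those of PSMB9 by 139 bases on the other strand, and the use of strand in counting is not stated. The folds were 5.02 in Mock, 4.52 in siNT and 3.90 in siELMO1.

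PSMB10 (ENSG00000205220.12, chr16:67934506-67936864), which replaces PSMB7, lies apart from the other immunosubunits and shares 640 exonic bases with the same-strand gene ENSG00000261884. That gene held 7447 counts over all libraries, and counts could be split between them. PSMB10 had 13.8, 14.7 and 14.1 CPM in Mock at 0 h and 82.5, 80.3 and 91.6 CPM at 24 h. In siNT it had 21.4, 24.7 and 21.9 CPM at 0 h and 53.0, 50.1 and 62.1 CPM at 24 h. In siELMO1 it had 17.7, 12.3 and 10.2 CPM at 0 h, the first being the library that stood apart, and 62.5, 60.2 and 71.8 CPM at 24 h. PSMB10 was highest in siNT at 0 h and highest in Mock at 24 h. The increase was 5.98-fold in Mock, 2.43-fold in siNT and 4.83-fold in siELMO1 (log2 2.58 ± 0.14, 1.28 ± 0.14 and 2.26 ± 0.14). Without siELMO1 0 h replicate 1 the siELMO1 value was 2.53 ± 0.12.

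**Figure D3:**
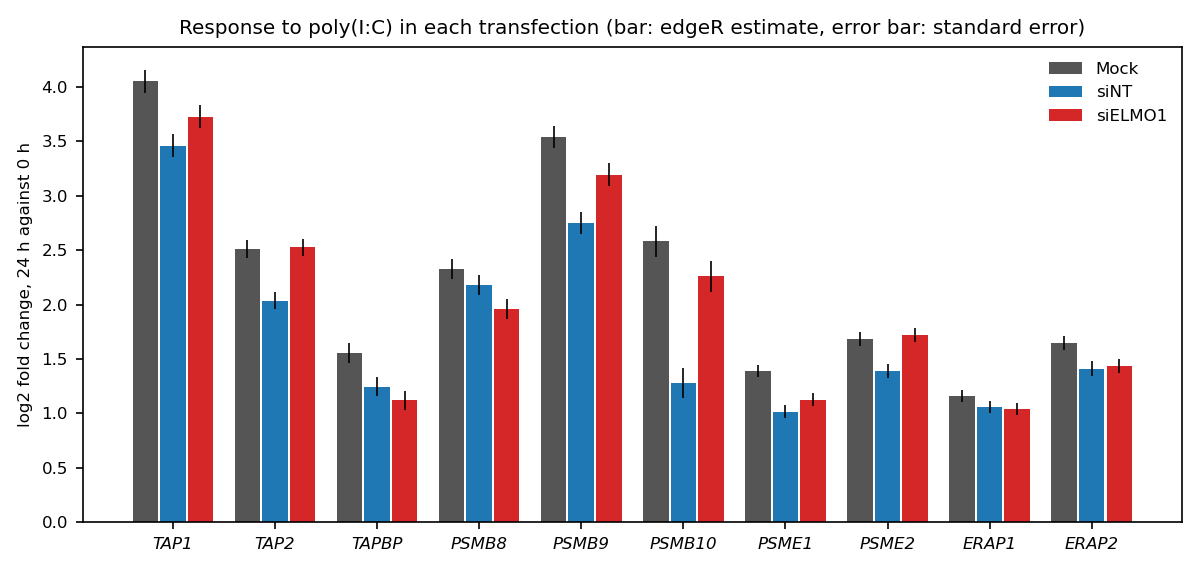
Log2 fold change of each gene from 0 h to 24 h of poly(I:C) in Mock (grey), siNT (blue) and siELMO1 (red). Error bars are standard errors back-calculated from the F statistic of the edgeR fit. TAP1 reaches 4.05 in Mock, all bars are above 1, and the siNT bar of PSMB10 is lower than its Mock and siELMO1 bars.

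The constitutive subunits moved little over the same 24 h. PSMB5 fell by 0.19 on the log2 scale in Mock (adjusted p = 0.00227) and changed by −0.05 and 0.01 in siNT and siELMO1, neither called. PSMB6 was −0.09 and −0.06 in Mock and siNT, not called, and fell by 0.21 in siELMO1 (adjusted p = 0.00423). PSMB7 rose by 0.27, 0.17 and 0.13 in Mock, siNT and siELMO1 (adjusted p = 1.93e-05, 0.00244 and 0.0105). Set per transcript length in TPM, PSMB8 made up 11.5% ± 0.317 (SD, n = 3) of PSMB8 plus PSMB5 in Mock at 0 h and 41.9% ± 1.85 at 24 h, 8.13% ± 0.512 and 27.7% ± 3.79 in siNT, and 13.4% ± 0.445 and 36.5% ± 1.51 in siELMO1. PSMB9 made up 5.77% ± 0.260 of PSMB9 plus PSMB6 and then 42.2% ± 0.445 in Mock, 6.68% ± 0.431 and 32.7% ± 4.38 in siNT, and 5.39% ± 0.0568 and 37.3% ± 1.197 in siELMO1. PSMB10 made up 6.82% ± 0.332 of PSMB10 plus PSMB7 and then 26.3% ± 1.19 in Mock, 8.64% ± 0.501 and 16.8% ± 1.44 in siNT, and 6.03% ± 1.43 and 21.9% ± 1.97 in siELMO1. The siELMO1 libraries at 0 h were at 7.66% for replicate 1, the one that stood apart, and at 5.46 and 4.97%. The constitutive subunit thus remained the larger share of RNA in all 3 pairs at 24 h.

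Within a library the ratio of the pair does not depend on library scaling. The log2 ratio of counts of PSMB9 to PSMB6 rose by 3.62 in Mock, 2.80 in siNT and 3.4 in siELMO1, that of PSMB8 to PSMB5 by 2.52, 2.22 and 1.96, and that of PSMB10 to PSMB7 by 2.31, 1.11 and 2.17. In these 9 comparisons the libraries did not overlap, and the 2-sided exact permutation p was 0.1, the smallest that 3 against 3 libraries can give. Between siELMO1 and siNT at 24 h the ratio was higher in siELMO1 by 0.55 for PSMB8 to PSMB5 and by 0.48 for PSMB10 to PSMB7 without overlap (exact permutation p = 0.1), and by 0.29 for PSMB9 to PSMB6 with overlap (exact permutation p = 0.2). At 0 h the difference of siELMO1 from siNT was 0.82 for PSMB8 to PSMB5, −0.31 for PSMB9 to PSMB6 and −0.58 for PSMB10 to PSMB7, with no overlap (exact permutation p = 0.1). Without siELMO1 0 h replicate 1 the PSMB10 to PSMB7 values were −0.78 for this difference and 2.37 for the siELMO1 response.

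**Figure D4:**
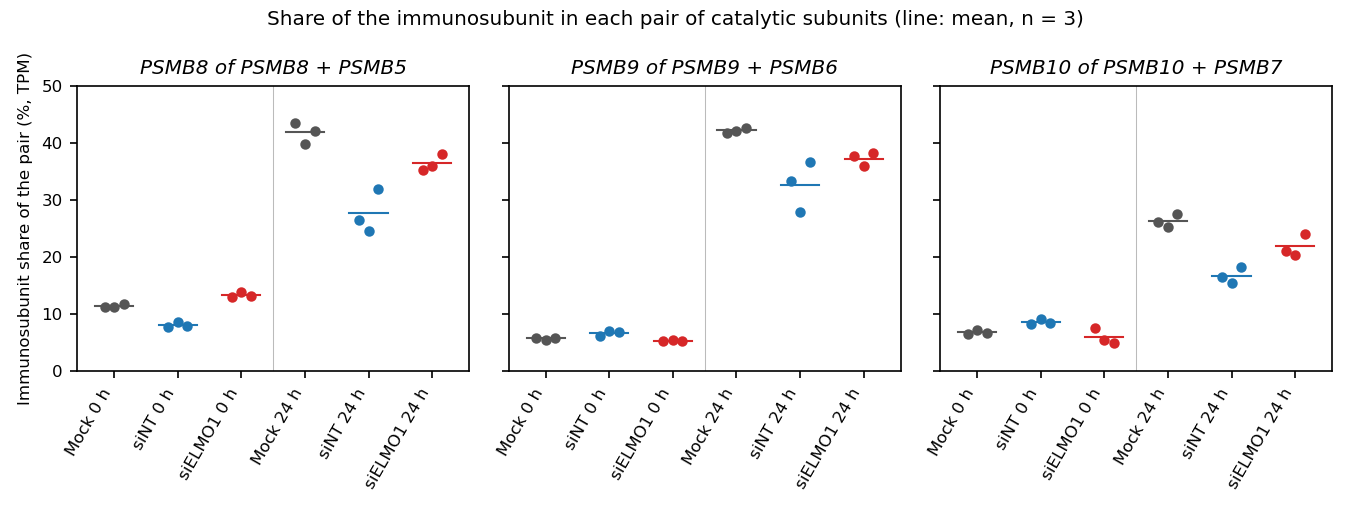
Share of the immunosubunit in the summed TPM of each pair of catalytic subunits, in percent, per library (points) with the mean of 3 (lines). At 24 h the mean share is highest in Mock and lowest in siNT in each pair, and the highest library reaches 43.5%.

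PSME1 (ENSG00000092010.15, chr14:24136163-24138967) and PSME2 (ENSG00000100911.16, chr14:24143362-24147570), close neighbours, encode the PA28 activator subunits and were the most abundant of the 10 genes per length. PSME2 shares 216 exonic bases with RNF31 on the other strand (46862 counts over all libraries), with the same limit on the use of strand. PSME2 had 88.5, 87.7 and 87.0 CPM in Mock at 0 h and 285, 283 and 277 CPM at 24 h. In siNT it had 105, 96.8 and 98.7 CPM at 0 h and 262, 247 and 277 CPM at 24 h. In siELMO1 it had 85.7, 72.3 and 68.4 CPM at 0 h, again with the library that stood apart highest, and 258, 241 and 247 CPM at 24 h. The groups stood close together at 24 h, with folds of 3.21, 2.62 and 3.30 in Mock, siNT and siELMO1. PSME1 ranged from 89.4 to 98.7 CPM over the 9 libraries at 0 h and from 174 to 261 CPM at 24 h, with folds of 2.62, 2.02 and 2.18.

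The trimming peptidases ERAP1 (ENSG00000164307.13, chr5:96760810-96808100) and ERAP2 (ENSG00000164308.17, chr5:96875986-96919703) lie side by side. ERAP1 shares 299 exonic bases with CAST on the other strand, which held 423133 counts over all libraries. The use of strand in counting is not stated, and the effect of this overlap on ERAP1 was not tested. ERAP1 had 112, 110.0 and 109 CPM in Mock at 0 h and 245, 240.3 and 256 CPM at 24 h. In siNT it had 91.9, 88.7 and 91.4 CPM at 0 h and 185, 174 and 207 CPM at 24 h. In siELMO1 it had 141, 141 and 153 CPM at 0 h and 289.8, 297 and 307 CPM at 24 h. At both times the 3 transfections did not overlap and stood in the order siNT, Mock, siELMO1. Its response was nearly the same size in all, 2.24-fold, 2.08-fold and 2.06-fold in Mock, siNT and siELMO1. ERAP2 ranged from 22.8 to 31.5 CPM at 0 h and from 60.6 to 100.03 CPM at 24 h, with Mock the highest group at both times and folds of 3.13, 2.66 and 2.70.

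Per length, in mean TPM, the order in Mock at 0 h was PSME1 (251), PSME2 (222), TAPBP (65.6), ERAP1 (55.3), PSMB8 (43.1), PSMB10 (36.2), TAP2 (20.8), PSMB9 (20.2), TAP1 (18.2) and ERAP2 (16.9). At 24 h it was PSME2 (659.6), PSME1 (622), TAP1 (283), PSMB9 (214), PSMB10 (197), PSMB8 (194), TAPBP (188), ERAP1 (113), TAP2 (107) and ERAP2 (48.4). TAP1 moved from place 9 to place 3 in Mock, from 9 to 4 in siNT and from 7 to 3 in siELMO1. Neighbours in these orders were often close: at 0 h in Mock TAP2 had 19.3 to 22.3 TPM, PSMB9 19.5 to 21.2 and TAP1 17.5 to 19.7, and at 24 h TAPBP (154 to 241), PSMB8 (179.7 to 208) and PSMB10 (183 to 213) overlapped. PSME1 and PSME2 held the first places and ERAP2 the last in all 6 groups.

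The next question was whether the ELMO1 siRNA changed these genes without poly(I:C). Between siELMO1 and siNT at 0 h the genes went in both directions: ERAP1, PSMB8 and TAPBP were higher in siELMO1, and PSMB10, TAP2 and PSME2 were lower. The 6 called of 10 compare with 62.6% of all tested genes called in this comparison, 31.3% in each direction. All siELMO1 libraries lay above all siNT libraries for 4 genes (TAP1, TAPBP, PSMB8 and ERAP1) and below them for 4 (TAP2, PSMB9, PSMB10 and PSME2), against 32.2% and 33.1% of all genes. The log2 differences were 0.68 ± 0.06 (SE) for ERAP1 (adjusted p = 7.38e-09), 0.56 ± 0.09 for PSMB8 (adjusted p = 4.07e-05) and 0.37 ± 0.09 for TAPBP (adjusted p = 0.00128). On the lower side they were −0.74 ± 0.14 for PSMB10 (adjusted p = 0.000192), −0.45 ± 0.08 for TAP2 (adjusted p = 5.69e-05) and −0.40 ± 0.07 for PSME2 (adjusted p = 3.38e-05). TAP1 (0.23, adjusted p = 0.0573), PSMB9 (−0.24, adjusted p = 0.0583), ERAP2 (−0.13, adjusted p = 0.0872) and PSME1 (0.03, adjusted p = 0.698) did not pass. Without siELMO1 0 h replicate 1, PSMB9 passed as well (−0.29, adjusted p = 0.0484), PSMB10 was −1.01 (adjusted p = 5.71e-07) and TAP1 0.12 (adjusted p = 0.339). TAP1 passed without siELMO1 0 h replicate 3 (0.29, adjusted p = 0.0291), and with DESeq2 both TAP1 (adjusted p = 0.0316) and PSMB9 (adjusted p = 0.0472) passed.

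Both siRNA groups also differed from Mock at 0 h. In siELMO1 against Mock (50.2% of all genes called), TAPBP (0.73), ERAP1 (0.39) and TAP1 (0.34) were higher and ERAP2 (−0.38), PSME2 (−0.22) and TAP2 (−0.19) lower. The calls of TAP1 (adjusted p = 0.00952) and TAP2 (adjusted p = 0.0458) were lost without siELMO1 0 h replicate 1 (0.23, adjusted p = 0.0744, and −0.19, adjusted p = 0.0875), and PSMB10 then passed (−0.33, adjusted p = 0.0187). The TAP1 call was also lost without Mock 0 h replicate 2 or 3 (adjusted p = 0.0766 and 0.0609), the TAP2 call without Mock 0 h replicate 1 or 3 or siELMO1 0 h replicate 2 (adjusted p = 0.147, 0.0512 and 0.134), and the PSME2 call without siELMO1 0 h replicate 3 (−0.15, adjusted p = 0.0715). Library totals ended the TAP1 call (adjusted p = 0.0556) and limma-voom the TAP2 call (adjusted p = 0.0777). In siNT against Mock (51.6% of all genes called), PSMB10 (0.68), TAPBP (0.36), TAP2 (0.26) and PSME2 (0.19) were higher and PSMB8 (−0.43), ERAP1 (−0.28) and ERAP2 (−0.25) lower. The TAP2 call of siNT was lost without Mock 0 h replicate 2 or 3 (adjusted p = 0.126 and 0.0559), and the PSME2 call without any Mock library or siNT 0 h replicate 1 (adjusted p = 0.0926 to 0.144). Library totals, upper-quartile factors and no filter also ended that PSME2 call (adjusted p = 0.16, 0.0546 and 0.111), and PSMB9 (0.25, adjusted p = 0.0542) passed with only the groups compared (adjusted p = 0.0349). TAPBP was thus above Mock with either siRNA and ERAP2 below it, while ERAP1 was above Mock with siELMO1 and below it with siNT. These comparisons share libraries, and none of their differences reached 2-fold.

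**Figure D5:**
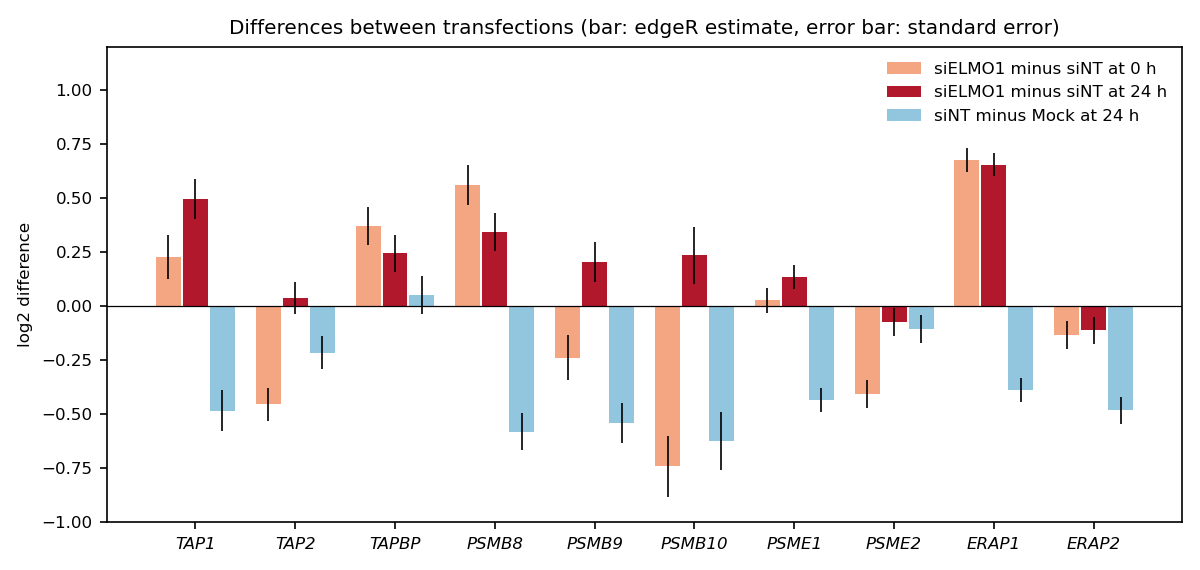
Log2 differences for the 10 genes: siELMO1 minus siNT at 0 h and at 24 h, and siNT minus Mock at 24 h. Error bars are standard errors back-calculated from the F statistic of the edgeR fit. ERAP1 is about equally higher in siELMO1 than in siNT at both times (0.68 and 0.66), and PSMB10 goes from −0.74 at 0 h to 0.24 at 24 h.

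After 24 h of poly(I:C), 5 of the 10 genes were higher in siELMO1 than in siNT and none was lower, where 52.6% of all tested genes were called, 26.0% as higher. ERAP1 differed by 0.66 ± 0.05 (adjusted p = 2.89e-08), TAP1 by 0.50 ± 0.09 (adjusted p = 0.000249) and PSMB8 by 0.34 ± 0.09 (adjusted p = 0.00307), each with all siELMO1 libraries above all siNT libraries, as in TAPBP, 4 genes against 29.1% of all. TAPBP (0.24, adjusted p = 0.0256) lost its call without siNT 24 h replicate 1 (0.18, adjusted p = 0.13) or replicate 2 (0.23, adjusted p = 0.069) and without siELMO1 24 h replicate 3 (0.20, adjusted p = 0.094), and with library totals (adjusted p = 0.0588). PSME1 (0.14, adjusted p = 0.0493) lost its call without any one of the libraries compared except siNT replicate 3, and with library totals, upper-quartile factors, no filter, filterByExpr or only the groups compared (adjusted p = 0.0551 to 0.2). PSMB9 (0.20, adjusted p = 0.0753), PSMB10 (0.24, adjusted p = 0.151), TAP2 (0.04), PSME2 (−0.07) and ERAP2 (−0.11) did not pass. PSMB9 passed without siNT 24 h replicate 3 (0.36, adjusted p = 0.000556), with DESeq2 (adjusted p = 0.0459) and with limma-voom (adjusted p = 0.045), and ERAP2 passed with library totals (−0.16, adjusted p = 0.0469).

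Against Mock at 24 h, siNT was lower in 8 of the 10 genes, with 50.2% of all genes called and 24.9% called lower, and in 9 genes every siNT library lay below every Mock library, against 28.8% of all. The largest of these differences were −0.62 for PSMB10 (adjusted p = 0.000867), −0.58 for PSMB8 (adjusted p = 2.82e-05) and −0.54 for PSMB9 (adjusted p = 0.00011), the 3 immunosubunits. TAP1 and ERAP2 were at −0.48, PSME1 at −0.43, ERAP1 at −0.39 and TAP2 at −0.21, while PSME2 (−0.11) and TAPBP (0.05) did not pass. The TAP2 call (adjusted p = 0.0234) was lost without Mock 24 h replicate 3 or siNT 24 h replicate 1 or 2 (adjusted p = 0.0905, 0.0889 and 0.113). siELMO1 against Mock at 24 h (43.6% of all genes called) had TAPBP (0.30) and ERAP1 (0.27) higher and ERAP2 (−0.59), PSMB10 (−0.39), PSMB9 (−0.34), PSME1 (−0.30), PSMB8 (−0.24) and PSME2 (−0.18) lower. TAP1 was at 0.01 (adjusted p = 0.918) and TAP2 at −0.18 (adjusted p = 0.0649). TAP2 passed with limma-voom, library totals or only the groups compared, and without siELMO1 24 h replicate 3 (adjusted p = 0.0399 to 0.0469). The calls of TAPBP, PSMB10, PSMB8 and PSME2 were each lost without 1 or more of the 6 libraries compared (adjusted p = 0.0527 to 0.111), the last 3 also with no filter (adjusted p = 0.051 for PSMB10, 0.0813 for PSMB8 and 0.116 for PSME2), and those of ERAP1, ERAP2, PSMB9 and PSME1 were not. siNT and siELMO1 were thus both below Mock for the immunosubunits, PSME1 and ERAP2. The part of cell death in the siNT differences at 24 h was not tested.

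Whether the response itself differed between transfections was tested with an interaction term. The response was larger in siELMO1 than in siNT for PSMB10 (difference of log2 fold changes 0.98 ± 0.19, adjusted p = 0.000795), TAP2 (0.49 ± 0.11, adjusted p = 0.00163), PSMB9 (0.44 ± 0.14, adjusted p = 0.0211) and PSME2 (0.33 ± 0.09, adjusted p = 0.00943), with 34.5% of all genes called and 16.7% as larger. Of these, PSMB10, TAP2 and PSME2, were lower in siELMO1 at 0 h and not called at 24 h. ERAP1, the gene with the smallest p between siELMO1 and siNT at each time, had an interaction of −0.02 (adjusted p = 0.867). Without siELMO1 0 h replicate 1 the same 4 genes passed, with PSMB10 at 1.25 (adjusted p = 3.08e-06), and TAP1 passed too (0.38, adjusted p = 0.0288), as it did without siNT 24 h replicate 3 (0.40, adjusted p = 0.0115). The PSMB9 call was lost without siNT 0 h replicate 2, siELMO1 0 h replicate 3 or siNT 24 h replicate 2 (adjusted p = 0.0509 to 0.054).

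The response of siNT was smaller than that of Mock for 6 genes, PSMB10 (−1.30, adjusted p = 6.15e-05), PSMB9 (−0.79, adjusted p = 0.000309), TAP1 (−0.59, adjusted p = 0.00301), TAP2 (−0.47, adjusted p = 0.00237), PSME1 (−0.37, adjusted p = 0.00164) and PSME2 (−0.29, adjusted p = 0.0205), where 31.0% of all genes were called and 16.0% as smaller. The response of siELMO1 was smaller than that of Mock for TAPBP (−0.44, adjusted p = 0.0136), PSMB8 (−0.37, adjusted p = 0.0368) and PSME1 (−0.26, adjusted p = 0.0199), with 28.3% of all genes called and 14.6% as smaller. Without Mock 0 h replicate 2 none of these 3 passed, at −0.37, −0.33 and −0.19, and PSMB8 was also lost without siELMO1 0 h replicate 1 (−0.31, adjusted p = 0.0736) and without most other single libraries (adjusted p = 0.0528 to 0.113). PSME1 was also lost without Mock 24 h replicate 3 (−0.23, adjusted p = 0.0537). Library totals and no filter ended the calls of PSMB8 (adjusted p = 0.0971 and 0.133) and PSME1 (adjusted p = 0.0781 and 0.154), and DESeq2 size factors that of PSMB8 (adjusted p = 0.0503). PSMB9 passed with only the groups compared (−0.34, adjusted p = 0.0196), PSMB10 without siELMO1 0 h replicate 3 (−0.49, adjusted p = 0.0449) and ERAP2 without siELMO1 24 h replicate 3 (−0.26, adjusted p = 0.0427). The PSME2 call of siNT against Mock was lost without any Mock 0 h library, siNT 0 h replicate 1, Mock 24 h replicate 1 or siNT 24 h replicate 2 (adjusted p = 0.0566 to 0.075), and with library totals or no filter (adjusted p = 0.141 and 0.0812). In that comparison TAPBP, PSMB8 and ERAP2 passed without siNT 24 h replicate 3 (adjusted p = 0.0229, 0.0203 and 0.0191), TAPBP and ERAP2 without Mock 24 h replicate 2 (adjusted p = 0.0296 and 0.0465), and TAPBP with DESeq2 (adjusted p = 0.0434).

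Other genes of the pathway, taken from lists, are given by their counts, to be read against the 30.7%, 28.6% and 28.0% of all tested genes called higher in Mock, siNT and siELMO1 and the 29.6%, 25.2% and 26.9% called lower. Of 11 other core subunits of the proteasome, 7 rose in Mock, 5 in siNT and 9 in siELMO1 and none fell, with PSMA6 at 0.83, 0.52 and 0.74 in these groups. The 9 in siELMO1 became 5 with library totals, upper-quartile factors or only the groups compared. Of 21 subunits of the 19S particle, which unfolds ubiquitin-tagged proteins, 7 rose and 4 fell in Mock, 9 rose and 2 fell in siNT, and 2 rose and 3 fell in siELMO1. These 5 calls in siELMO1 became 9 with library totals or upper-quartile factors. Among 8 other activators and assembly factors, 4 rose and 1 fell in Mock, 1 rose and 1 fell in siNT, and 3 rose and 1 fell in siELMO1. The proteasome maturation protein POMP was at 0.48 in Mock, 0.18 in siNT (adjusted p = 0.124) and 0.52 in siELMO1.

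All 9 other peptide loading genes rose in Mock, 6 in siNT and 7 in siELMO1, and none fell. B2M, the light chain of class I, led them at 2.40, 1.77 and 2.11 in Mock, siNT and siELMO1, and the tapasin-related TAPBPL stood at 1.42, 1.08 and 1.08. Among 7 other peptidases 2 rose and 3 fell in Mock, 4 rose and 2 fell in siNT, and 3 rose and 1 fell in siELMO1. The cytosolic leucine aminopeptidase LAP3 rose by 3.32, 2.95 and 3.20. Of 12 transcription regulators of class I genes 10 rose in Mock, 9 in siNT and 11 in siELMO1, and 1 fell, CIITA in Mock (−0.82, adjusted p = 0.0492), which was at 0.05 in siNT and rose by 1.33 in siELMO1. They included NLRC5, the class I transactivator, at 3.00, 1.87 and 2.84 and IRF1 at 2.97, 2.02 and 2.95. All 6 class I heavy chain genes rose in each transfection, with medians of 3.16, 2.36 and 3.03.

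Over the 18 libraries the 10 genes varied together, with Pearson's r of log2 CPM from 0.808 between PSMB10 and ERAP1 to 0.994 between TAP2 and PSMB9 and a median of 0.957 over 45 pairs. These libraries share the poly(I:C) contrast, so the values are a description. The genes most like TAP1 were BST2 (r = 0.999) and LAP3 (0.998), among 13613 genes compared. PSMB9 was most like ISG20 (0.999), PSMB8 like APOL2 (0.996), PSMB10 like MSX1 (0.992), TAP2 like SLC25A28 (0.998), PSME2 like IFIT5 (0.996), PSME1 like CCL5 (0.995), TAPBP like CEACAM1 (0.991), ERAP1 like MYLK (0.993) and ERAP2 like SAMD9 (0.991).

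The estimated transcripts behind TAP1 also shifted. TAP1-201 held 68.9 to 94.7% of the TAP1 counts in the 9 libraries at 0 h and 3.97 to 57.5% at 24 h. TAP1-211 was listed at 0 in all 9 libraries at 0 h, and at 24 h it held 30.02 to 40.8% in siNT, 16.9 to 38.9% in siELMO1 and 0, 19.3 and 0% in Mock. The shares of TAP1 transcripts at 24 h thus differed widely between libraries of a group. For TAP2, the retained-intron transcript TAP2-203 held 10.5 to 38.3% at 0 h and 34.3 to 45.8% at 24 h, with overlap. These shares are StringTie estimates from reads that transcripts of a gene share, and they were not tested.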

How the data were processed

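Total RNA of 18 EA.hy926 cultures was sequenced by the authors with a stranded kit, aligned with STAR to GRCh38 and assembled with StringTie. The deposited gene and transcript matrices hold estimated counts, whole numbers made by the authors from StringTie coverage and not normalized. The use of strand in counting is not given in the sources used here. Groups follow the labels, with 3 libraries in each. Genes with a total of 100 or more counts and a highest CPM of 1 or more were kept, 15167 of 62754. One edgeR 4.0.16 quasi-likelihood fit (R 4.3.3) over all 18 libraries with TMM factors (0.958 to 1.06) gave 12 comparisons, 2-sided, called at a Benjamini-Hochberg adjusted p under 0.05. Standard errors of its log2 fold changes were back-calculated, as the absolute fold change divided by the square root of the F statistic. The biological coefficient of variation was 12.2%. The lowest member count was 340, of PSMB9 at 0 h, where counting error is of the order of its spread within a group. CPM are after TMM, and TPM were computed from transcript counts and GENCODE 44 lengths. Count ratios used a pseudocount of 0.5 and exact permutation tests (SciPy 1.17.1), correlations 1 CPM. Alternatives were DESeq2 1.42.0, limma-voom 3.58.1, other scalings and filters, fewer groups, a replicate block and leaving out each library. Scripts were tested on simulated data.

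The members and lists were chosen with earlier results of these data known. Members were all named, and other genes were named by list or by likeness. Same-numbered libraries deviated together (all 3 r over 0.1) only for Mock and siNT at 24 h, and the block changed no call in that comparison. In the interaction of siNT and Mock, which uses these libraries, TAPBP and ERAP2 gained a call with it. For replicate 3 alone, r at 24 h was 0.358 between Mock and siELMO1 and 0.424 between siNT and siELMO1. Over 45 pairs the median r was 0.045.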

Additional observations from a re-analysis of the deposited data

Results flagged for a closer look

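The response to poly(I:C) differed between transfections by the interaction term in 13 cases. siELMO1 exceeded siNT for PSMB10 (0.98 on the log2 scale), TAP2 (0.49), PSMB9 (0.44) and PSME2 (0.33). siELMO1 was below Mock for TAPBP (−0.44), PSMB8 (−0.37) and PSME1 (−0.26). siNT was below Mock for PSMB10 (−1.30), PSMB9 (−0.79), TAP1 (−0.59), TAP2 (−0.47), PSME1 (−0.37) and PSME2 (−0.29). These comparisons share libraries, and each adjusted p stands with the result above. The part of cell death in the comparisons with siNT was not tested.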

How the results depend on the processing

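Of 120 results for single genes 83 were called, 66 of them under every alternative, 17 lost the call under 1 or more, and no called result reversed. Genes called in siELMO1 against Mock at 24 h numbered 5 with no filter on low counts, and 5 to 7 without single libraries. In the interaction of siELMO1 and Mock they numbered 1 with library totals and 1 with no filter, and 0 to 4 without single libraries. In siELMO1 against siNT at 24 h they numbered 3 to 6 without single libraries. In the siELMO1 response, constitutive subunits called numbered 1 with library totals, upper-quartile factors or only the groups compared (1 to 2 without single libraries), other core subunits 5 with each of these, and 19S subunits 9 with library totals or upper-quartile factors. Differences near 0 that were not called changed sign. PSMB9 in siELMO1 against Mock at 0 h was −0.0029 with DESeq2, −0.069 with library totals, −0.0024 with DESeq2 size factors, −0.0043 with upper-quartile factors, −0.028 with no filter and −0.036 with only the groups compared (−0.05 to 0.047 without single libraries). Library totals gave −0.0078 for TAP2 in siELMO1 against siNT and −0.0068 for TAP1 in siELMO1 against Mock at 24 h, and −0.004 for the ERAP2 interaction of siELMO1 and siNT. No filter gave 0.015 for that of ERAP1. Without single libraries the range was −0.33 to 0.099 for PSMB10 in siELMO1 against Mock at 0 h, −0.0096 to 0.12 for TAP2 in siELMO1 against siNT, −0.022 to 0.058 for TAP1 in siELMO1 against Mock and −0.029 to 0.17 for TAPBP in siNT against Mock at 24 h. In the interaction of siELMO1 and siNT it was −0.076 to 0.051 for ERAP1 and −0.031 to 0.077 for ERAP2, and in that of siELMO1 and Mock −0.03 to 0.11 for TAP2 and −0.03 to 0.14 for PSME2. The cause was not tested. With a replicate block, 8 genes rather than 6 passed in siELMO1 against siNT at 0 h and 8 rather than 6 in the interaction of siNT and Mock, and the block ended no call. The 8 results that gained a call with the block were TAP1 (adjusted p = 0.0472) and PSMB9 (0.0403) in the first, TAPBP (0.0259) and ERAP2 (0.032) in the second, PSMB9 in siNT against Mock at 0 h (0.0342), in siELMO1 against siNT at 24 h (0.0422) and in the interaction of siELMO1 and Mock (0.0467), and TAP2 in siELMO1 against Mock at 24 h (0.0472). PSMB9 in the interaction of siELMO1 and siNT missed the threshold with limma-voom (0.44, adjusted p = 0.0759). With 3 against 3 libraries the exact permutation test of the count ratios cannot pass 0.05.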
